A study of Homo sapiens with 8 samples.

Results

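The cytosolic heat shock and chaperonin genes are a set of 40 genes for protein folding, and they were described in KG1a cells given the SUMOylation inhibitor TAK-981, the BCL2 inhibitor venetoclax or both drugs. The members were chosen by gene symbol, as targets of the heat shock factor HSF1, chaperone families, co-chaperones and CCT, with no measured value in the rule. They comprise 2 heat shock transcription factors, 6 HSP70 genes, 3 HSP110 genes, 5 HSP40 genes, 8 genes of HSP90 and its co-chaperones, 3 genes of the BAG and small heat shock protein families, 5 genes grouped as organelle chaperones and the 8 CCT subunits. All 40 symbols were found among the 25168 genes of the count table. The name holds for most members only: the HSPA9, HSPD1, HSPE1 and DNAJA3 proteins act in mitochondria, and HSPA13 is tied to the endoplasmic reticulum.

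KG1a is an established human acute myeloid leukemia line of immature phenotype, and all libraries came from this 1 line. Vehicle cells received DMSO, and the others received 5 µM TAK-981, 1 µM venetoclax or both at these doses (the combination), each for 48 h. No genetic change distinguished the groups, and every group shared the line, the medium with serum and the treatment time. RNA sequencing gave 2 libraries per group, 8 in all. The labels do not tell whether separate cultures were used, so p-values measure only how far these libraries spread, and that spread may be technical.

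Chaperones bind proteins that are not yet folded or have lost their fold. HSP40 proteins deliver such clients to HSP70, HSP110 proteins exchange the nucleotide on HSP70, and STIP1 passes clients on to HSP90, whose cycle is set by co-chaperones such as AHSA1, PTGES3 and CDC37. CCT is a ring of 8 different subunits that folds actin, tubulin and other proteins. HSF1, the master heat shock factor, binds repeated GAA and TTC units, called heat shock elements, in the promoters of many of these genes. Some members, such as HSPA8 and HSP90AB1, are made at all times, whereas HSPA1A, HSPA1B and HSPA6 are known as heat-inducible genes.

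Total counts ran from 13204588 to 26304900 per library, and the members held 1.28% to 1.33% of counts in vehicle, 1.27% to 1.33% with TAK-981, 2.09% to 2.17% with venetoclax and 1.64% to 1.75% with the combination. Over the tested members, the median difference between the 2 libraries was 0.10 log2 units in vehicle, 0.10 with TAK-981, 0.22 with venetoclax and 0.09 with the combination, so the venetoclax libraries were the widest apart. Of 8 markers of the line, CD34 stood at 953 to 1519 CPM and FLT3 at no more than 0.087 CPM in every library, and 3 of the 7 tested (CD33, GATA2 and SPN) were called higher with TAK-981 and, with PTPRC lower, in the combination against vehicle. Of 13 markers of other cells, EPCAM, KRT19, COL1A2, DCN, HBB and HBA1 were at 0 throughout, whereas the T-cell genes CD3D (17.92 to 38.71 CPM) and CD3E (5.624 to 15.58 CPM) were detected, and CD3E fell with TAK-981 and in the combination against vehicle. The 13 summed to 37.22 and 50.03 CPM in vehicle, 45.38 and 47.11 with TAK-981, 42.80 and 30.70 with venetoclax and 23.87 and 27.75 with the combination, and their part in the results on the members was not tested. In bulk RNA, fewer cells of a type and less RNA per cell cannot be told apart. CPM are counts set to a common library total after TMM scaling, and a member was called changed where its p, adjusted over all 12843 genes tested, was under 0.05. Of the 40 members, 38 passed the filter on low counts and were tested.

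The heat shock element is shown here because members differ in whether their promoter window holds it. Targets of HSF1 are part of the choice of genes, so an excess of this element among the members over all genes follows from that choice and is given as a description. Promoter windows from 250 bases before to 50 after each listed start of a gene were taken from RefSeq (GRCh38.p14). A gene with several starts was counted where any of its windows matched. The windows, 50 for the members, held 36 of the 40 members. They were searched on both strands for 2 alternating units, GAANNTTC or TTCNNGAA, and for 3 units, in which the first of these runs on into NNGAA or the other into NNTTC, so that every match of 3 units also holds matches of 2. The stretches below, read along the gene's strand from 5′ to 3′, cover 6 tested members with a match of 3 units and the heat-inducible HSPA6, and capitals mark the matched bases. They lie at chr11:123062171-123062200 (HSPA8, minus strand), chr14:102087112-102087141 (HSP90AA1, minus), chr6:44247768-44247847 (HSP90AB1, plus), chr11:90223083-90223112 (CHORDC1, minus), chr2:197500061-197500090 (HSPD1, minus), chr7:157336844-157336923 (DNAJB6, plus) and chr1:161524440-161524519 (HSPA6, plus).
HSPA8: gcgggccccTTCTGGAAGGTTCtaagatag
HSP90AA1: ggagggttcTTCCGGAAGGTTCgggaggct
HSP90AB1: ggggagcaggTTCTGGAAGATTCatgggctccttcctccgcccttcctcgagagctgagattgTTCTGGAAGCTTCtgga
CHORDC1: ccgGAAAATTCGCGAAGGTTCCTGAAacgc
HSPD1: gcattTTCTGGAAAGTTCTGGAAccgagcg
DNAJB6: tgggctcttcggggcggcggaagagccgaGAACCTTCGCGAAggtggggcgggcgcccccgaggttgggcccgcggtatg
HSPA6: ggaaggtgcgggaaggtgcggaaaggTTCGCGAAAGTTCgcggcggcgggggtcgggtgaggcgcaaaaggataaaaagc
DNAJA1, of whose window no stretch is printed, held GAACTTTCCAGAA from base 4 to base 16 after its start.

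A match of 3 units was found in 8 of the 36 members with a window (22.2%), against 0.608% of all 27305 genes with windows of this length. The CHORDC1 stretch held 3 overlapping matches and the HSP90AB1 stretch 2 separate ones, whereas the HSPA6 stretch held 1. Matches in the HSPD1 stretch also overlapped, and the HSPA8 window held a further match from base -230 to -218, outside the printed stretch. In GENCODE the HSPD1 stretch overlaps exons of both HSPD1 and HSPE1. The stretches of HSPA8, HSP90AA1 and CHORDC1 overlap exons of their own genes. Apart from that of HSPA6, the printed stretches lie inside the gene spans of the deposited table, before a start listed within the span. A match of 2 units was found in 20 of 36 members (55.6%), HSPA1A, HSPA1B, HSPB1 and DNAJB1 among them, against 16.2% of all genes. HSPH1 had no match of 3 or 2 units in its window, which says only that these letters are not there. HSF1, HSPA14, FKBP4 and CCT6A were not matched to a window.

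**Figure D1:**
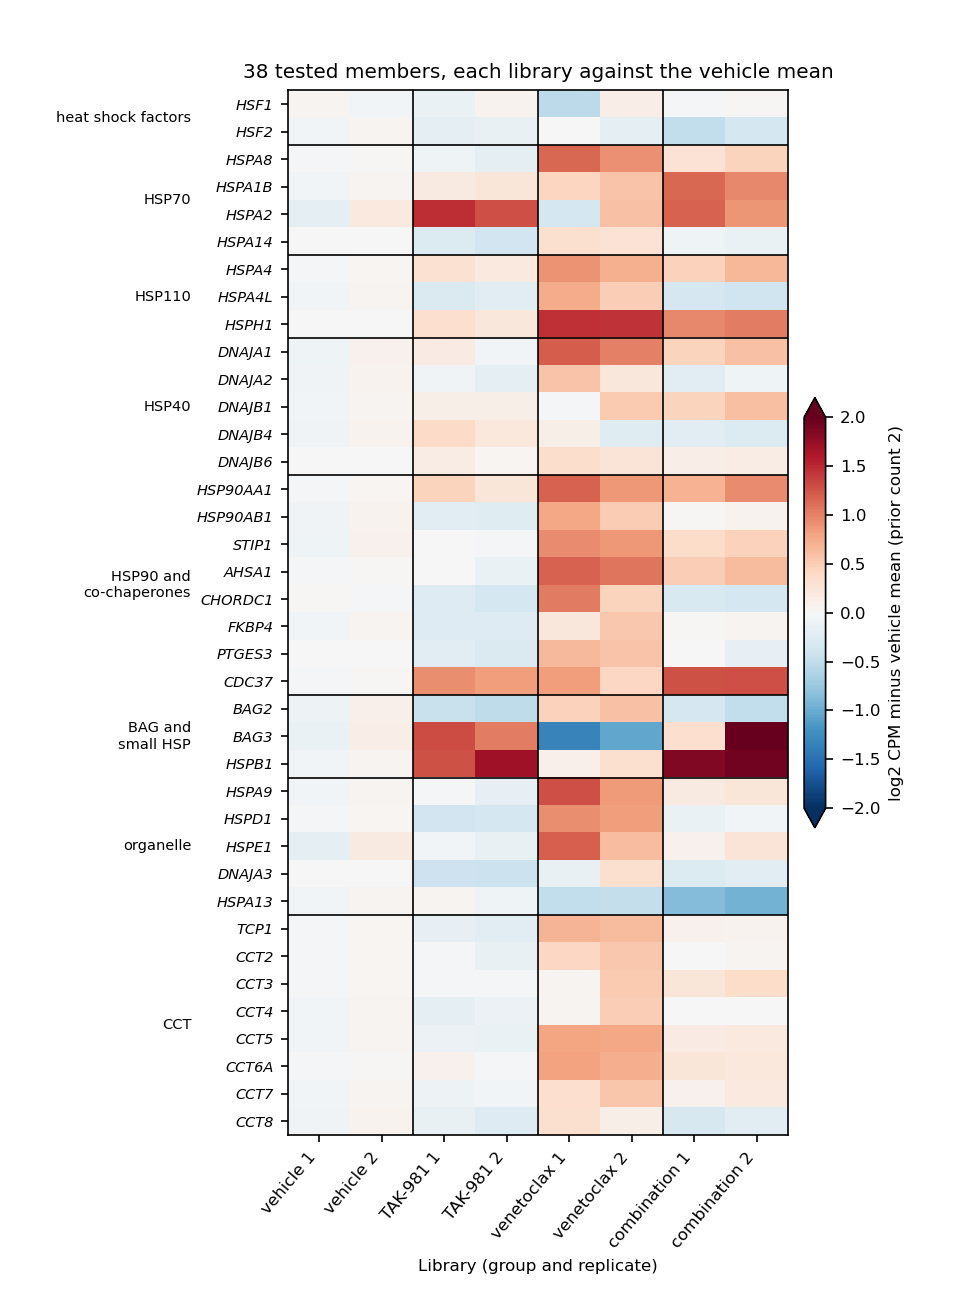
The heat map shows log2 CPM (prior count 2) of the 38 tested members in each of the 8 libraries, less the vehicle mean, with genes in the order of their roles and the colour scale ending at -2 and 2. The venetoclax columns have medians of 0.51 and 0.54 and the combination columns 0.09 and 0.17.

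Levels of different genes depend on the length they are divided by. Lengths in the deposited table exceeded the longest coding transcript in GENCODE for 34 of 40 members, by up to 5.92 times (DNAJB6), so both scales are given as the vehicle mean. Per kb of table length HSP90AB1 stood at 585, HSPA8 at 533 and HSP90AA1 at 419 CPM, and per kb of transcript at 649, 1050 and 625. On both scales these 3 genes were the highest, in a different order, followed by HSPD1 at 188 per table kb (324 per transcript kb) and CCT8 at 166 (275). The order of the genes after CCT8 also depended on the scale. HSPA8, HSP90AA1 and HSP90AB1 together took 49.7% to 56.7% of the members' counts in each library. The heat-inducible HSP70 genes HSPA1A, HSPA1B and HSPA6 were low in every library. HSPA1B had a vehicle mean of 1.67 CPM per kb on either scale, HSPA6 had 0 counts over both vehicle libraries and 5 over both combination libraries, and HSPA1A had 3 and 1. HSPA1A and HSPA6 were therefore not tested, and both share sequence with a neighbouring copy, since 72.5% of the 51-base windows of HSPA1A occur in HSPA1B and 45% of those of HSPA6 in HSPA7.

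Venetoclax alone was compared with vehicle for its own effect on the set. Of 38 tested members 24 rose and 1 fell, against 11.4% of all tested genes called higher and 9.44% called lower. The median log2 fold change of the members was 0.52, and that of all genes was 0. All 3 HSP110 genes, all 8 genes of HSP90 and its co-chaperones, 5 of 8 CCT subunits and 3 of 5 organelle chaperones rose. Both venetoclax libraries lay above both vehicle libraries in 30 members and below them in 2, where 29.7% and 28.5% of all tested genes did so.

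HSPH1, an HSP110 protein on chromosome 13 (31134974 to 31162388, hg38), had 127.5 and 127.2 CPM in vehicle, 161.5 and 149.8 with TAK-981, 350.6 and 348.5 with venetoclax and 248.0 and 259.7 with the combination. The 4 groups of HSPH1 did not overlap, with venetoclax highest and vehicle lowest. Its log2 fold change with venetoclax, 1.46 (SE 0.093, adjusted p = 0.000362), was the highest of the members. The other HSP110 genes, HSPA4 and HSPA4L, rose by 0.81 (SE 0.11) and 0.63 (SE 0.11). HSPA4 had 143.6 and 152.9 CPM in vehicle, 182.3 and 169.7 with TAK-981, 275.6 and 242.6 with venetoclax and 204.2 and 234.0 with the combination, an order of groups like that of HSPH1. HSPA4L had 109.6 and 117.0 CPM in vehicle, 92.66 and 97.26 with TAK-981, 189.9 and 160.0 with venetoclax and 89.62 and 85.42 with the combination. Unlike the other HSP110 genes, HSPA4L was below vehicle in every library that received TAK-981.

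HSPA8, the constitutive HSP70 on chromosome 11 (123057489 to 123063230), stood at 2523 and 2635 CPM in vehicle, 2441 and 2258 with TAK-981, 5727 and 4879 with venetoclax and 3147 and 3525 with the combination. The venetoclax libraries were the highest, and its log2 fold change there was 1.04 (SE 0.14, adjusted p = 0.00331). HSPA14, a ribosome-associated HSP70, rose by 0.30. HSPA1B and HSPA2 had log2 fold changes of 0.51 and 0.33 and were not called. HSPA1B had 4.039 and 4.397 CPM in vehicle, 4.77 and 5.026 with TAK-981, 5.712 and 6.273 with venetoclax and 9.51 and 8.302 with the combination. Its groups stood in that order with no overlap.

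Among the HSP40 genes, which pass clients to HSP70, DNAJA1 had 194.7 and 219.4 CPM in vehicle, 230.9 and 199.1 with TAK-981, 478.8 and 413.9 with venetoclax and 282.7 and 308.8 with the combination. Vehicle and TAK-981 overlapped, the combination lay above them and venetoclax was highest, with a log2 change against vehicle of 1.11 (SE 0.12, adjusted p = 0.00177). DNAJB1, the HSP40 partner of inducible HSP70, had 63.58 and 68.81 CPM in vehicle, 71.38 and 71.97 with TAK-981, 64.05 and 95.27 with venetoclax and 90.39 and 99.99 with the combination. The venetoclax libraries of DNAJB1 stood apart from each other, with replicate 1 among the vehicle values and replicate 2 among those of the combination. DNAJB6 rose by 0.30, while DNAJA2 (0.40), the stress-responsive DNAJB1 (0.27) and DNAJB4 (-0.06) were not called.

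HSP90AA1, the inducible HSP90 gene on chromosome 14 (102080738 to 102139699), had 2145 and 2241 CPM in vehicle, 2992 and 2590 with TAK-981, 4987 and 4011 with venetoclax and 3551 and 4205 with the combination. Every treated library was above both vehicle libraries, and the venetoclax and combination libraries overlapped. Its log2 fold change with venetoclax was 1.04 (SE 0.16, adjusted p = 0.00491). Its constitutive counterpart HSP90AB1 had 1653 and 1819 CPM in vehicle, 1495 and 1470 with TAK-981, 2964 and 2467 with venetoclax and 1766 and 1825 with the combination. For HSP90AB1 the venetoclax libraries were the highest and the combination overlapped vehicle, and its log2 change with venetoclax was 0.65 (SE 0.13, adjusted p = 0.0121). The largest rises among the co-chaperones were those of AHSA1, which activates the HSP90 ATPase, with 1.13 (SE 0.10), and STIP1, with 0.91 (SE 0.11). AHSA1 had 134.2 and 139.0 CPM in vehicle, 135.6 and 124.5 with TAK-981, 309.6 and 287.8 with venetoclax and 192.2 and 211.6 with the combination. STIP1 had 313.0 and 351.4 CPM in vehicle, 334.3 and 323.1 with TAK-981, 642.0 and 605.4 with venetoclax and 429.7 and 456.5 with the combination. In both genes TAK-981 overlapped vehicle, and the combination lay between vehicle and venetoclax with no overlap. CHORDC1 rose by 0.78, CDC37, which brings kinases to HSP90, by 0.63, PTGES3 by 0.61 and the immunophilin FKBP4 by 0.39.

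Among the organelle chaperones, HSPA9, the mitochondrial HSP70, had 218.9 and 234.2 CPM in vehicle, 219.6 and 202.5 with TAK-981, 551.9 and 408.3 with venetoclax and 257.4 and 266.5 with the combination. The venetoclax libraries of HSPA9 were the highest and the widest apart, and its log2 change there was 1.08 (SE 0.14, adjusted p = 0.00277). HSPD1, the mitochondrial chaperonin, had 775.8 and 816.4 CPM in vehicle, 611.2 and 620.3 with TAK-981, 1508 and 1416 with venetoclax and 722.9 and 769.5 with the combination. Only the venetoclax libraries of HSPD1 exceeded the vehicle libraries, with a log2 change of 0.88 (SE 0.11, adjusted p = 0.00234). Its co-chaperonin HSPE1 rose by 0.92, although 52.6% of its 51-base windows occur in transcripts of other genes, 25.6% in those of HSPD1. HSPE1 had 29.62 and 37.78 CPM in vehicle, 32.10 and 30.16 with TAK-981, 76.69 and 51.32 with venetoclax and 35.48 and 39.98 with the combination, so venetoclax alone was separate from the other groups. HSPA13 was the member that fell, by 0.48 (adjusted p = 0.011), and DNAJA3 had 0.11.

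The 8 CCT subunits summed to 2617 and 2803 CPM in vehicle, 2549 and 2467 with TAK-981, 3719 and 3895 with venetoclax and 2782 and 2881 with the combination. CCT is assembled from 1 copy of each subunit per ring, and the levels of the subunits per kb of table length differed by 1.82 to 2.88 times between the highest and the lowest subunit of a library, and per kb of transcript by 1.89 to 3.01 times. TCP1 (0.65), CCT2 (0.48), CCT5 (0.78), CCT6A (0.77) and CCT7 (0.45) rose with venetoclax. CCT3 (0.31), CCT4 (0.29) and CCT8 (0.22) were not called. In venetoclax replicate 1, CCT3 and CCT4 were at 315.8 and 315.9 CPM, near vehicle, and in replicate 2 at 434.5 and 425.0, so their 2 venetoclax libraries differed more than those of CCT5 (584.8 and 578.3). CCT8, the most abundant subunit in every library on both length scales, had 521.9 and 579.7 CPM in vehicle, 497.9 and 460.1 with TAK-981, 690.1 and 594.8 with venetoclax and 439.8 and 475.0 with the combination, which was the lowest group apart from an overlap with TAK-981.

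The subunits that rose with venetoclax had the following levels. TCP1 had 325.9 and 342.4 CPM in vehicle, 299.5 and 289.0 with TAK-981, 533.2 and 516.0 with venetoclax and 356.3 and 351.5 with the combination. CCT5 had 325.7 and 352.9 CPM in vehicle, 311.3 and 307.9 with TAK-981, 584.8 and 578.3 with venetoclax and 379.6 and 389.0 with the combination. CCT6A had 300.4 and 307.8 CPM in vehicle, 323.2 and 299.2 with TAK-981, 531.8 and 504.7 with venetoclax and 360.8 and 351.8 with the combination. In these 3 subunits both combination libraries were above vehicle and far below venetoclax. CCT2 had 327.2 and 345.6 CPM in vehicle, 329.8 and 304.9 with TAK-981, 447.2 and 490.3 with venetoclax and 333.3 and 348.3 with the combination, where combination and vehicle overlapped. CCT7 had 229.0 and 247.2 CPM in vehicle, 222.2 and 228.4 with TAK-981, 300.5 and 351.1 with venetoclax and 251.3 and 271.3 with the combination. For CCT7 the venetoclax libraries were again above all others. Of CCT3 and CCT4, CCT3 had 295.6 and 312.2 CPM in vehicle, 298.9 and 299.2 with TAK-981 and 359.0 and 390.0 with the combination, inside the range of its venetoclax libraries. CCT4 had 291.5 and 315.2 CPM in vehicle, 265.7 and 278.1 with TAK-981 and 301.6 and 304.5 with the combination, inside the vehicle range. Of the 51-base windows of CCT5, 47.1% occur in the overlapping model AC012640.4.

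**Figure D2:**
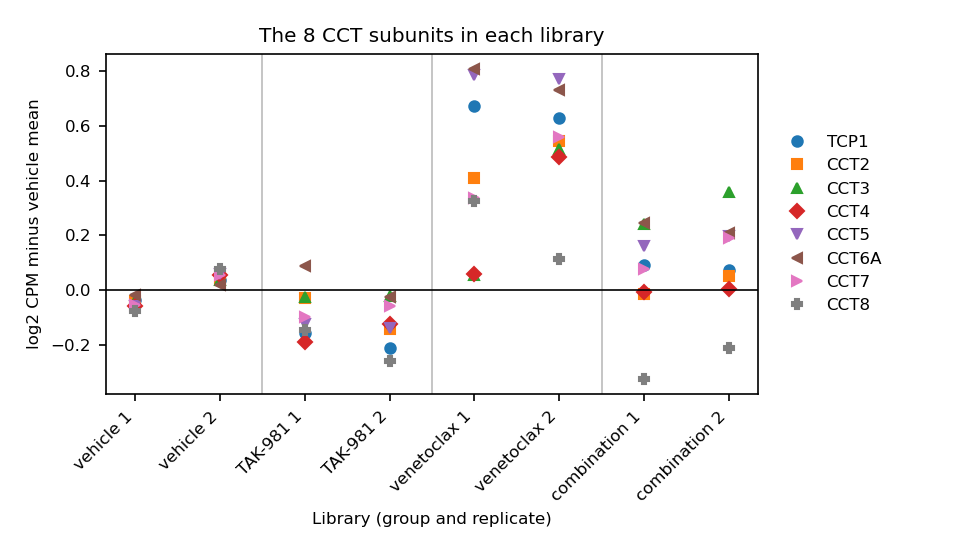
Each point is 1 CCT subunit in 1 library, as log2 CPM less its vehicle mean. All 8 subunits lie above 0 in both venetoclax libraries, from 0.06 to 0.81 in replicate 1 and from 0.11 to 0.77 in replicate 2, and CCT8 is the lowest in both combination libraries.

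The factors themselves were not called with venetoclax: HSF1 had a log2 fold change of -0.14 and HSF2 of -0.08. HSF1 had 43.78 and 40.17 CPM in vehicle, 38.38 and 43.95 with TAK-981, 29.17 and 46.21 with venetoclax and 41.20 and 42.75 with the combination, so every group overlapped vehicle. HSF2 had 61.67 and 66.72 CPM in vehicle, 56.08 and 57.64 with TAK-981, 64.81 and 56.89 with venetoclax and 45.40 and 50.25 with the combination, which was the lowest group. Of the BAG and small heat shock genes BAG2, an HSP70 co-chaperone, rose by 0.53, whereas HSPB1 (0.22) and BAG3 (-1.69, adjusted p = 0.229) were not called. Of the windows of BAG2, 42.3% are shared with RAB23. All 7 tested members with a match of 3 units rose with venetoclax, with a median log2 fold change of 0.88. So did 14 of the 27 tested members with a window but no such match, with a median of 0.48. Of all tested genes, 11.4% were called higher, and no test compared members with and without a match. Over the 52 tested genes of the whole table with a match, the median was 0.07, and calls among them were not counted.

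The adjusted p of these rises rested on the spread pooled over all 8 libraries. With the 4 libraries of the comparison alone, 5 members were called, all higher (HSPH1, DNAJA1, STIP1, AHSA1 and HSPA9), against 0.512% of genes called higher in that analysis. Without vehicle replicate 1 in the pooled analysis 9 were called, all higher, against 0.618% of genes.

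**Figure D3:**
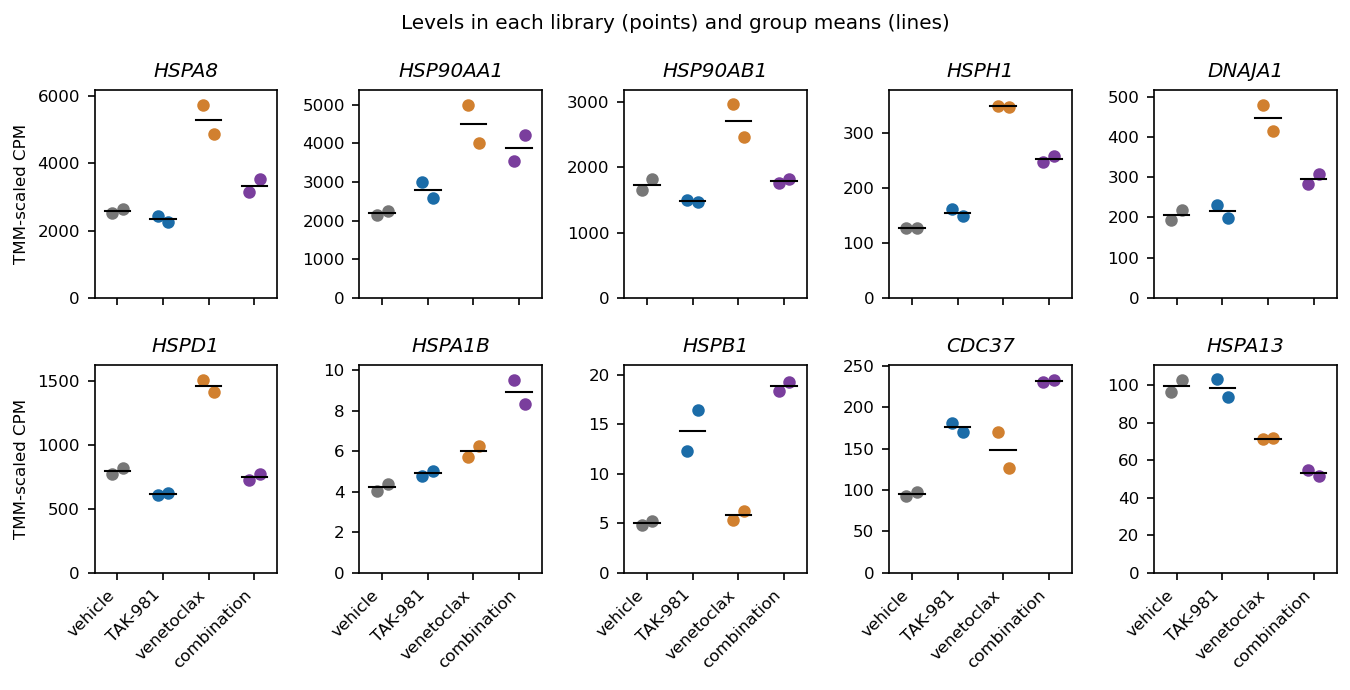
TMM-scaled CPM of 10 members in each library (points) with group means (lines), each panel with its own axis from 0. HSPA8, HSPH1, DNAJA1 and HSPD1 have their highest points with venetoclax, HSPA1B and HSPB1 with the combination, and HSPA13 has its lowest points with the combination.

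TAK-981 alone was compared with vehicle. Of 38 members, 3 were called higher, against 5.98% of all genes, and 2 lower, against 6.18%. The members' median log2 fold change was -0.08, and that of all genes was 0.001. HSPB1, a small heat shock protein that holds unfolded proteins (chromosome 7, 76302544 to 76304295), rose from 4.777 and 5.208 CPM in vehicle to 12.25 and 16.42, a log2 change of 1.52 (SE 0.19, adjusted p = 0.00155). CDC37 had 93.42 and 97.28 CPM in vehicle, 181.4 and 170.1 with TAK-981 and 169.7 and 126.6 with venetoclax, and its log2 change with TAK-981 was a rise of 0.88 (SE 0.13, adjusted p = 0.00385). Both TAK-981 libraries of these genes were above both vehicle libraries, as in 11 members altogether, against 32.4% of all genes. In 17 members they were below, against 32.9%.

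HSPA2, an HSP70 best known from testis, was at 0.4343 and 0.5976 CPM in vehicle and 1.59 and 1.39 with TAK-981 (log2 change 1.52, adjusted p = 0.0375). BAG2 had 48.77 and 56.05 CPM in vehicle and 38.25 and 36.73 with TAK-981, and fell by 0.48 (SE 0.12). HSPA14 had 92.38 and 91.47 CPM in vehicle and 76.37 and 70.69 with TAK-981, and fell by 0.32 (adjusted p = 0.0489). The TAK-981 libraries of both were below vehicle. No HSP110, HSP40, organelle or CCT gene was called with TAK-981, and their medians were 0.25, 0.09, -0.11 and -0.11. HSPH1 (0.29, adjusted p = 0.0731), HSP90AA1 (0.35) and HSPD1 (-0.37, adjusted p = 0.0561) had values without overlap between the groups but did not pass. Without both venetoclax libraries, 7 members were called higher and 8 lower in this comparison, against 14.5% and 15.7% of genes. Without vehicle replicate 1, HSPB1 alone was called, against 2.94% of genes.

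The combination was compared with vehicle. Of the members, 10 rose, against 12.8% of all genes, and 4 fell, against 15.1%. The median log2 fold change was 0.14, and that of all genes was 0.01. Both combination libraries lay above both vehicle libraries in 20 members and below them in 11, against 36.8% and 35.8% of all genes. Of the called members, HSPB1 and CDC37 had the largest changes, with HSPB1 at 18.33 and 19.30 CPM (log2 change 1.91, SE 0.19, adjusted p = 0.000231) and CDC37 at 231.2 and 233.0 CPM (1.28, SE 0.13). HSPB1 had 5.331 and 6.234 CPM with venetoclax, so the 4 libraries that received TAK-981 were the high ones. HSPA1B, the inducible HSP70 of low level, had a log2 change of 1.08 (SE 0.18, adjusted p = 0.00248). Of its 51-base windows 71.4% occur in HSPA1A, which had next to no counts, and how reads of such windows were counted is not given in the sources used here.

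HSPH1 rose by 1.00 (SE 0.092), HSP90AA1 by 0.82, HSPA4 by 0.56, AHSA1 by 0.56, DNAJB1 by 0.52, DNAJA1 by 0.51 and STIP1 by 0.42. No CCT subunit was called, with changes from -0.27 (CCT8) to 0.30 (CCT3). HSPA13 had 96.42 and 102.9 CPM in vehicle, 103.1 and 93.84 with TAK-981, 71.13 and 71.70 with venetoclax and 54.78 and 51.49 with the combination. It fell by 0.91 (adjusted p = 0.000363), with the combination below all other groups and TAK-981 overlapping vehicle. HSF2 fell by 0.43, BAG2 by 0.42 and HSPA4L by 0.37. Without combination replicate 2, 6 members were called, against 10.9% of genes. With the 4 libraries alone 15 were called higher and 7 lower, against 22.6% and 23% of genes.

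Adding TAK-981 to venetoclax was examined by comparing the combination with venetoclax. Most members were lower with both drugs: 24 were called lower, against 22% of all genes, and 4 higher, against 17.6%. The members' median log2 fold change was -0.44, and that of all genes was -0.02. The combination libraries lay below both venetoclax libraries in 28 members and above them in 5, where 35.8% and 32.9% of all genes did so. By role, 6 of 8 CCT subunits, 6 of 8 genes of HSP90 and its co-chaperones, 4 of 5 organelle chaperones, 2 of 3 HSP110 and 2 of 5 HSP40 genes fell. CHORDC1 had the largest fall, with 621.1 and 410.6 CPM with venetoclax and 243.8 and 234.8 with the combination. Its log2 change was -1.11 (SE 0.17, adjusted p = 0.00155), and both combination libraries were below both venetoclax libraries and below both vehicle libraries, which stood at 307.6 and 294.7.

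HSPA4L fell by 1.00 (SE 0.11), HSPD1 by 0.97 (SE 0.11), BAG2 by 0.94, HSPA9 by 0.87, HSPE1 by 0.76 and PTGES3 by 0.70. BAG2 had 72.12 and 78.90 CPM with venetoclax and 41.33 and 37.07 with the combination. PTGES3, also known as p23, had 198.1 and 202.3 CPM in vehicle, 172.2 and 164.0 with TAK-981, 315.0 and 296.8 with venetoclax and 198.5 and 178.6 with the combination. The combination libraries of both were far below venetoclax, and those of PTGES3 overlapped vehicle. HSPA8 fell by 0.67 (SE 0.14, adjusted p = 0.00649), HSP90AB1 by 0.60, CCT5 by 0.60, DNAJA1 by 0.59, TCP1 by 0.57 and HSPH1 by 0.46. HSP90AA1 (-0.21, adjusted p = 0.317) and CCT3 (-0.004, adjusted p = 0.986) were not called. The genes that rose were HSPB1 (1.69, SE 0.19), CDC37 (0.65, SE 0.13), HSPA1B (0.57, SE 0.18) and BAG3, a partner of HSP70 in autophagy. BAG3 had a log2 change of 3.18 that rests on low counts, 0.07616 and 0.1169 CPM with venetoclax and 0.4572 and 1.675 with the combination, so its size depends on the prior count. Without combination replicate 2 it was 2.09 and was not called (adjusted p = 0.0828). In vehicle BAG3 had 0.304 and 0.3842 CPM and with TAK-981 0.9884 and 0.8021, and the combination libraries lay on either side of those with TAK-981.

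This comparison shares its venetoclax libraries with that of venetoclax against vehicle, so a high venetoclax library enters both a rise there and a fall here. With the 4 libraries of the comparison alone, 13 members were called between combination and venetoclax, 11 lower and 2 higher, against 9.41% and 10.9% of genes. Noncoding RNAs listed as a check of RNA quality moved too, and 6 of 7 rose in the combination against each of the other groups. Their summed level was 12170 to 14200 CPM there, against 3404 to 3783 in vehicle, 4151 to 6896 with TAK-981 and 3994 to 5731 with venetoclax. Most of that sum was MALAT1, at 11460 and 13520 CPM in the combination. RN7SK had 2.91 and 3.287 CPM in vehicle, 8.81 and 5.721 with TAK-981, 10.43 and 9.118 with venetoclax and 56.7 and 91.39 with the combination. The part of these RNAs in the results on the members was not tested.

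The interaction asked whether the TAK-981 effect differed with and without venetoclax, the 2 effects resting on separate libraries. No member passed edgeR's test, against 0.0311% of all genes. Of 38 member values 31 were negative, against 6562 of 12843 over all genes. The members' median was -0.42, where all genes had -0.01. At an unadjusted p under 0.05 there were 21 members, all negative, against 11.6% of all genes that were negative at that level. The smallest adjusted p was that of HSPH1, 0.0968, with an interaction of -0.75 (SE 0.13), and CHORDC1 had -0.80, HSPA9 -0.77 and HSPA4L -0.74. DESeq2 called 5 members, all negative, against 1.19% of genes, and edgeR without the filter on low counts called 10, all negative, against 3.6%. Where single libraries were left out, edgeR kept that filter, and positive calls there are given with no background beside them. Without venetoclax replicate 1 it called 12, all negative, against 3.69% of genes. Without venetoclax replicate 2 it called 25 negative, against 19.6% of genes, and 2 positive.

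**Figure D4:**
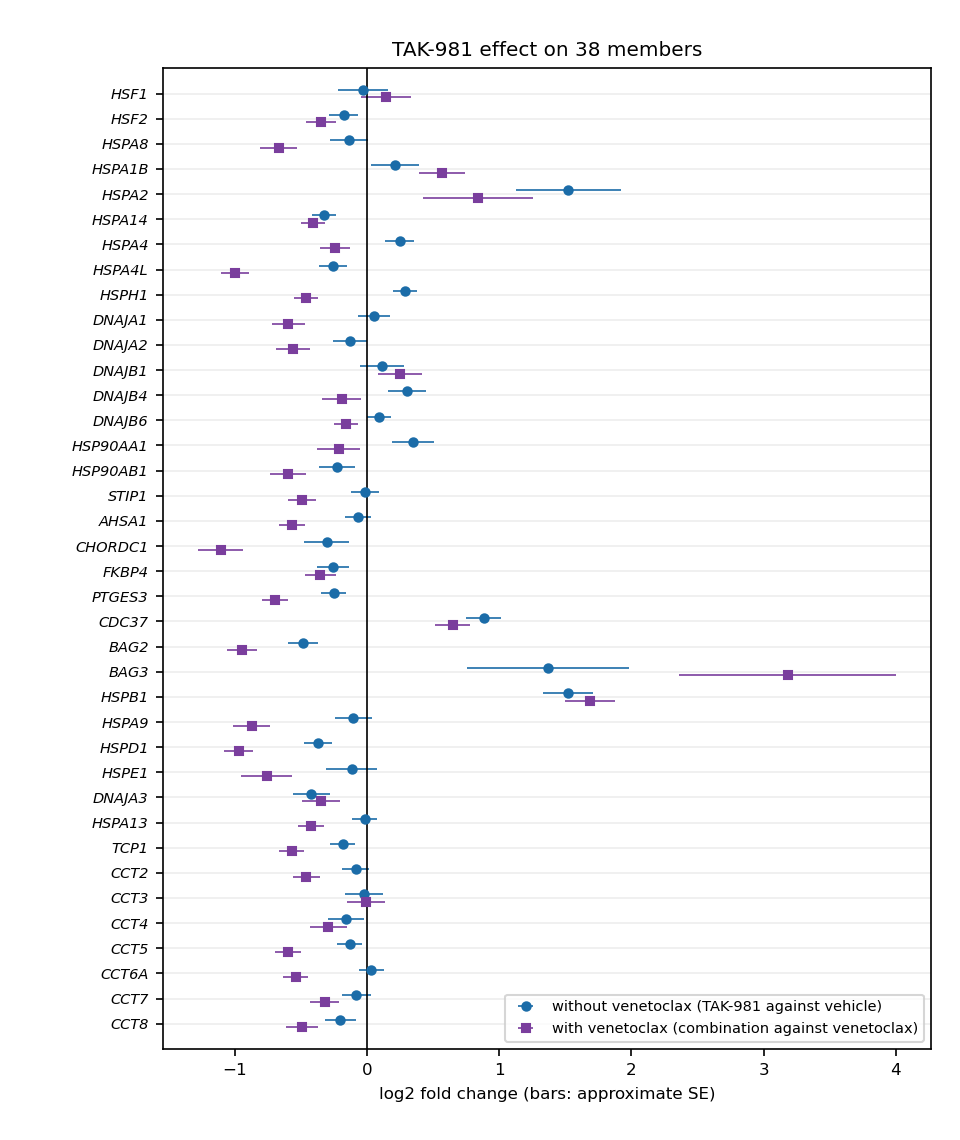
Log2 fold change of TAK-981 without venetoclax (circles, against vehicle) and with it (squares, combination against venetoclax) for the 38 tested members, with bars of 1 approximate SE. HSPB1, CDC37 and HSPA1B lie right of 0 in both, whereas HSPA9, HSPD1 and CHORDC1 have squares well left of their circles.

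The combination was compared with TAK-981 for the effect of added venetoclax. Of the members, 4 rose, against 2.76% of all genes, and 2 fell, against 6.03%. The median was 0.24, and that of all genes was 0.02. Of 38 member values 30 were positive, against 6660 of 12843 over all genes. Both combination libraries were above both TAK-981 libraries in 26 members and below them in 5, against 33.8% and 31.6% of all genes. HSPA1B (0.87, SE 0.18, adjusted p = 0.0192), HSPH1 (0.70, SE 0.092), AHSA1 (0.63) and STIP1 (0.43) rose. HSPA13 fell by 0.89 (adjusted p = 0.00205) and DNAJB4 fell by 0.55, from 36.57 and 32.46 CPM with TAK-981 to 23.96 and 23.08 with the combination. DNAJB4 had 26.75 and 29.2 CPM in vehicle and 30.31 and 23.73 with venetoclax. HSPB1 and CDC37, which were higher with TAK-981 alone, had 0.40 and 0.40 and were not called. Without both venetoclax libraries 18 members were called higher and 3 lower, against 13.2% and 15.6% of genes. Without TAK-981 replicate 2 or combination replicate 2 HSPA13 was the 1 call, against 0.789% and 0.496% of genes.

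Genes that work with the members were counted from lists, to be read against 11.4% of all genes called higher and 9.44% called lower with venetoclax, and 22% called lower and 17.6% called higher in the combination against venetoclax. Of 9 genes of prefoldin, which hands clients to CCT, and CCT helpers, 5 rose with venetoclax, among them PFDN6 (0.86), PDCL3 (0.85), PFDN2 (0.82) and PFDN1 (0.74), and 8 fell in the combination against venetoclax. Of 24 other co-chaperones tested, 13 rose with venetoclax, among them NUDC (1.15) and CACYBP (1.08), and 15 fell and 3 rose in the combination against venetoclax. Of 8 other genes linked to HSF1, 1 rose with venetoclax, MRPL18 (0.70), a share near that of all genes. In the combination against venetoclax, 3 of these 8 rose and 2 fell, with a median log2 fold change of 0.32, unlike the other lists. SERPINH1, a collagen chaperone of that list, rose with TAK-981 (0.78) and in the combination against vehicle (1.62), as HSPB1 did. It was the 1 gene of the 8 called in either comparison, where 5.98% and 12.8% of all genes were called higher. Of 9 genes of the mitochondrial chaperone system 2 rose and 1 fell with venetoclax, and 4 fell in the combination against venetoclax.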

How the data were processed

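Counts of reads per gene were deposited by the authors for 8 libraries as whole numbers, not normalized, in 1 table with hg38 coordinates and gene lengths. The submitters' processing notes list Trimmomatic, STAR 2.6.0, HTSeq 0.11.1 and edgeR and give no role to any of them. For the annotation, the strand and reads with several placements, the setting was not given in the sources used here. Reads were single, of 51 bases, per the labels' protocols. Those protocols name a SMART-Seq kit and the design text Ribo-Zero, which bears on RNAs without poly(A) tails.

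The test was the quasi-likelihood F test of edgeR 4.0.16 (limma 3.58.1, R 4.3.3) after TMM scaling and filterByExpr, in 1 fit of 8 libraries with 4 residual degrees of freedom, two-sided, with Benjamini-Hochberg adjustment over 12843 genes at 0.05. The SE is approximate: the size of the log2 change divided by the root of F. A prior count of 2 was used for log2 CPM of single libraries. Values of the compared libraries are given for up to 8 called members with the smallest p in each comparison. Those of every library are given for a fixed set of main chaperones, factors and CCT subunits, except HSPA1A and HSPA6, which had few counts. Related lists give up to 4 called genes. Members, lists and tests were chosen with earlier results of these data known. Sharing with other genes was counted as 51-base windows of GENCODE 29 transcripts. On simulated counts for venetoclax against vehicle (12672 genes), the edgeR test recovered 30 of 100 true 1.5-fold and 89 of 100 true 2-fold changes. Of 130 calls, 11 were false. The simulation gave all groups the same spread. In the data the median replicate difference over all tested genes was 0.297 log2 units with venetoclax, 0.12 in vehicle, 0.109 with TAK-981 and 0.125 with the combination. The simulated figures therefore cannot be carried over to the real comparison. Alternatives were DESeq2 1.42.0 and its size factors, limma-voom, the replicate block, no filter, a mean of at least 1 CPM, each library left out, no venetoclax libraries and the 4 libraries of a comparison alone.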

Additional observations from a re-analysis of the deposited data

How the results depend on the processing

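The members' median kept its sign under every alternative run, from 0.45 to 0.60 for venetoclax against vehicle, -0.46 to -0.41 for the combination against venetoclax, 0.07 to 0.16 for the combination against vehicle, 0.22 to 0.28 for the combination against TAK-981, -0.13 to -0.05 for TAK-981 against vehicle and -0.47 to -0.36 for the interaction. Counts of calls moved more. With each library left out in turn, members called ran from 1 to 15 for TAK-981 against vehicle, 9 to 30 for venetoclax against vehicle, 6 to 22 for the combination against vehicle, 16 to 34 for the combination against venetoclax, 1 to 21 for the combination against TAK-981 and 0 to 27 for the interaction, and over all genes from 336 to 3879, 253 to 5360, 1431 to 6152, 2386 to 7204, 65 to 3696 and 0 to 4440. With the 4 libraries alone, members called were 16, 5, 22, 13 and 22 in the 5 comparisons of groups in that order, and genes 4096, 200, 5740, 2497 and 3746, against 1562, 2676, 3582, 5086 and 1130. Of the 200, 63 were higher and 137 lower. Without both venetoclax libraries, TAK-981 against vehicle had 15 members and 3863 genes, the combination against vehicle 22 and 6110, and the combination against TAK-981 21 and 3678. A mean of at least 1 CPM left 3 members for TAK-981 against vehicle, with 1384 of 11612 genes called. No filter gave 11 members (1875 genes) for the combination against TAK-981 and 10 (1098 genes, against 4) for the interaction, where DESeq2 gave 5 (300 genes), limma-voom 9 genes and DESeq2's size factors 8. DESeq2 gave 10 members (1362 genes) for the combination against TAK-981. The cause of these shifts was not tested. In the combination against venetoclax, CCT3 turned to 0.24 (adjusted p = 0.0382) without venetoclax replicate 2 and was at -0.22 without replicate 1. BAG3 in that comparison went from 3.18 to 2.09 (adjusted p = 0.0828) without combination replicate 2. A promoter match of 2 units in place of 3 was found in 20 members. The replicate numbers were not shown to pair the libraries, since correlations of replicate differences between groups ran from -0.009 to 0.207. With the replicate block, members called were 6, 25, 14, 28, 8 and 0, and genes 1739, 2994, 3798, 5306, 1253 and 24, the interaction being last. Members called in every alternative were HSPB1 with TAK-981, HSPH1, DNAJA1, STIP1, AHSA1 and HSPA9 with venetoclax, 6 in the combination against vehicle, 12 against venetoclax and HSPA13 against TAK-981. The share of all genes called in every alternative was not counted, so these counts of members have no background beside them. The depth of 0 to 5 counts per group does not allow a statement on HSPA6.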

Other observations

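The balance of the HSP90 genes differed between groups, a ratio chosen after the values were seen and given with no test. Per kb of the lengths in the deposited table, HSP90AA1 stood at 0.735 and 0.698 times HSP90AB1 in vehicle, 1.13 and 0.998 with TAK-981, 0.953 and 0.921 with venetoclax and 1.14 and 1.30 with the combination. Per kb of the longest coding transcript, a scale added after the data were seen, the ratios were 0.989 and 0.938, 1.52 and 1.34, 1.28 and 1.24, and 1.53 and 1.75 in the same order, so whether HSP90AA1 lies below HSP90AB1 depends on the scale. On both scales the vehicle libraries were the lowest. Of the 51-base windows of HSP90AA1, 20.7% occur in other genes, and 18.2% of those of HSP90AB1.

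The constitutive HSPA8 exceeded the inducible HSPA1B by 325 and 312 times per kb of table length in vehicle, 266 and 234 with TAK-981, 522 and 405 with venetoclax and 172 and 221 with the combination. This ratio too was chosen after the values were seen. Per kb of transcript the values were 639 and 614, 524 and 460, 1030 and 796, and 339 and 435. On both scales the venetoclax libraries had the highest values and the combination libraries the lowest. Of the transcript windows of HSPA1B, 73.5% occur in other genes, and 14.4% of those of HSPA8. How reads of such windows were counted is not given in the sources used here. Their part in the size of this ratio was not tested.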
